A study of Mus musculus with 6 samples.

Results

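Kit, Cd44, Il2ra, Thy1, Cd24a, Flt3, Cd34 and Ptprc encode cell surface proteins that are used to stage the earliest thymocytes. These 8 genes were taken by their symbols from the 28048 genes listed for each barcode, and all 8 had a UMI (unique molecular identifier, 1 counted RNA molecule) in at least 15 of the cells kept, as did 13599 genes in all. Their RNA was measured by sci-RNA-seq3, a combinatorial indexing method for fixed cells, in bone marrow-derived T-cell progenitors that had been grown again for 4 days on OP9-DL1 cells, a stromal line that presents the Notch ligand Dll1. The comparison was between WT (C57BL/6 Bcl11b YFP/YFP) cells and ΔTE (Bcl11b YFPΔEnh/YFPΔEnh) cells, in which a distal enhancer that sets the timing of Bcl11b activation is deleted. Cells of both genotypes carried the Bcl11b fluorescent reporter.

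Within each genotype the cultures began from sorted DN1 (CD44+CD25-), DN2a (CD44+CD25+Bcl11b-) or DN2b (CD44+CD25+Bcl11b+) progenitors, which gives 6 conditions with 1 library each. CD44 and CD25, the products of Cd44 and Il2ra, were therefore part of the sort gates, and CD117, the product of Kit, had been used to enrich the bone marrow. The donors were WT and ΔTE mice of both sexes, aged 2 to 4 months, and cells were pooled from 6 to 8 mice. The paper describes littermates for its primary cell work, and whether the marrow donors were littermates is not stated. Cultures that allow both T-cell and ILC growth held SCF (the ligand of Kit), Flt3-L (the ligand of Flt3), IL-15, IL-7 and IL-2. The cocktail of the sort included antibodies to CD11b, CD11c, NK1.1, Ter119, CD3ε, Gr-1 and B220, and cells were passed through a mesh at harvest to hold back stroma. The cells of a library were indexed in 3 wells of the reverse transcription, which split 1 culture technically and do not replicate it. No difference between conditions therefore had a replicate, and none was tested.

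As background, the earliest progenitors in the thymus carry Kit, CD44 and Flt3 and can still form myeloid and other lymphoid cells. Notch signalling brings on CD25 and Thy1 at the DN2 stage, while Flt3 and CD34 are lost, and Kit and CD44 fall as cells commit to the T-cell lineage. Bcl11b, a zinc finger repressor, is switched on between DN2a and DN2b and closes off other fates, including innate lymphoid cells (ILCs).

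The genes lie on 5 chromosomes in GENCODE M21 on the GRCm38 build, matched by Ensembl identifier, and all are annotated as protein coding. The receptor tyrosine kinase genes Kit and Flt3 are both on chromosome 5, Kit at chr5:75574916-75656722 on the plus strand and Flt3 at chr5:147330741-147400489 on the minus strand. Cd34 lies at chr1:194938819-194961279 (plus strand) and Ptprc at chr1:138062861-138175708 (minus strand). Il2ra is at chr2:11642807-11693193 (plus strand) and Cd44 at chr2:102811141-102901665 (minus strand), with Thy1 at chr9:44043384-44048579 and Cd24a at chr10:43578284-43584265, both on the plus strand. An antisense gene overlaps Cd34 (Gm16897) and another overlaps Flt3 (Gm26597), and neither is among the listed genes. Transcripts of Cd24a share a stretch of 218 bases at 96.8% identity with Gm6212, also not listed. Shorter stretches of 143 to 158 bases at 95.2% to 97.2% identity are shared by Il2ra with 4 listed genes (Echs1, Olfr393, Olfr639 and Reep3), and Cd34 shares 151 bases with Gm16897. How such reads were counted is not given, so the values of these 3 genes are less certain.

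Promoters are shown for 4 genes that were past 1.5-fold in a comparison below, so that the differences can be read beside the letters at their starts. The RefSeq sequences (GRCm38.p6) run from 250 bases before to 50 after the gene's start, in the direction of transcription, and were given for 6 of the 8 genes (not Thy1 or Cd24a). Capitals mark matches on either strand to the RUNX word TGTGGT, the TCF/LEF word CTTTGA, the RBPJ word TGGGAA, the ETS word AGGAAG, and for GATA factors AGATAA or else AGATAG or else TGATAA or else TGATAG.
Cd34, chr1:194938571-194938870, plus strand: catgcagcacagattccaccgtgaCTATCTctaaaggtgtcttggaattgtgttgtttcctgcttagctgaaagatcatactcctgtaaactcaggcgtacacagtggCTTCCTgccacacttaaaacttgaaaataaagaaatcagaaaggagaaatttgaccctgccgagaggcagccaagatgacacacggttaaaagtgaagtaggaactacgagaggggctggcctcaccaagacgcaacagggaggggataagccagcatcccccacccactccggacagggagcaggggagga
Flt3, chr5:147400440-147400739, minus strand: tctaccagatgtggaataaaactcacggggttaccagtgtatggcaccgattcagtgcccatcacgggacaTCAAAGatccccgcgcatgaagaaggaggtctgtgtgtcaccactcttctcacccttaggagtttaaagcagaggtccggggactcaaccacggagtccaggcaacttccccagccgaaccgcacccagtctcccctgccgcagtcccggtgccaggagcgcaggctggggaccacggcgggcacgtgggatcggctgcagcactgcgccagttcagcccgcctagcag
Cd44, chr2:102901616-102901915, minus strand: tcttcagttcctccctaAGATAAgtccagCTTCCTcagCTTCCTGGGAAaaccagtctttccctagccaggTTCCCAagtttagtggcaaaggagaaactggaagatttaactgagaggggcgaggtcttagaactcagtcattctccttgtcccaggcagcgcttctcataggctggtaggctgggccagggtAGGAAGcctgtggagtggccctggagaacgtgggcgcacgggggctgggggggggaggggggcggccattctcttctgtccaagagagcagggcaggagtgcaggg
Il2ra, chr2:11642542-11642841, plus strand: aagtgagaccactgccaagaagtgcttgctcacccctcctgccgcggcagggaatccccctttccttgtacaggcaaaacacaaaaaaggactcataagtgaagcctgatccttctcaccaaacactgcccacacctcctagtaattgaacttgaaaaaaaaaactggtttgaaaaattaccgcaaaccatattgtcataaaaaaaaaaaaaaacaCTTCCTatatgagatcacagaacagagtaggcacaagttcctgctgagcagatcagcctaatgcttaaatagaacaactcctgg
The Cd34 window held 1 GATA match and 1 ETS match, and the Flt3 window held 1 TCF/LEF match. The Il2ra window held 1 ETS match, whereas the Cd44 window held 1 GATA, 2 RBPJ and 3 ETS matches. Of 32851 promoters of the same length, 29.8% held a GATA match, 35.4% an ETS match, 25.6% an RBPJ match, 16.0% a TCF/LEF match and 16.8% a RUNX match. A match describes the letters only and says nothing of binding.

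A total of 60671 cells were kept, 3401 to 19489 per library, with 1715982 to 9041255 UMIs per library and medians of 386 to 485 UMIs per cell. No barcode was shared between libraries. WT DN2a stood apart, with 14.1% mitochondrial UMIs where the other 5 libraries had 21.3% to 23.5%, and it also held the most cells of Stroma-like clusters (9.04%, against 1.38% to 5.43%). Levels below are CPM (a gene's UMIs scaled to the same total, 1e6 UMIs, in each library), and intervals are 95% exact intervals that cover counting error only. They compare a gene between libraries, never one gene with another. In summed libraries, fewer cells that carry an RNA and less RNA in each cell cannot be told apart.

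Cd34, which encodes a sialomucin of stem and progenitor cells, was lower in ΔTE than in WT, and the difference was larger in the later starts. In the WT libraries it stood at 99.5 CPM (596 UMIs) for DN1, 58.4 CPM (528 UMIs) for DN2a and 61.2 CPM (167 UMIs) for DN2b. In the ΔTE libraries it stood at 84.3 CPM (497 UMIs), 21.1 CPM (133 UMIs) and 10.5 CPM (18 UMIs). For the DN2a start the WT wells gave 56.4, 57.9 and 60.7 CPM and the ΔTE wells 15.3, 26.0 and 26.3 CPM, so the wells did not overlap. The DN2b wells were also apart, at 84.7, 48.6 and 58.9 CPM in WT against 17.7, 3.78 and 8.85 CPM in ΔTE. In the DN1 start the wells overlapped, with 90.6 to 108 CPM in WT and 74.1 to 91.7 CPM in ΔTE.

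The log2 ratio of ΔTE to WT for Cd34 was -0.24 (-0.41 to -0.06) in DN1, -1.47 (-1.76 to -1.19) in DN2a and -2.54 (-3.33 to -1.84) in DN2b. Among the genes with at least 50 UMIs over both libraries, 47 of 10955 had a ratio as low as that of Cd34 or lower in DN2a, and 8 of 8546 in DN2b. The median of all these genes was -0.14 in DN2a, so that relative to it Cd34 stood at -1.33. With any 1 well left out, the Cd34 ratio ranged from -1.61 to -1.16 in DN2a and from -3.26 to -2.18 in DN2b. Whether these 3 ratios differ was not tested.

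**Figure D1:**
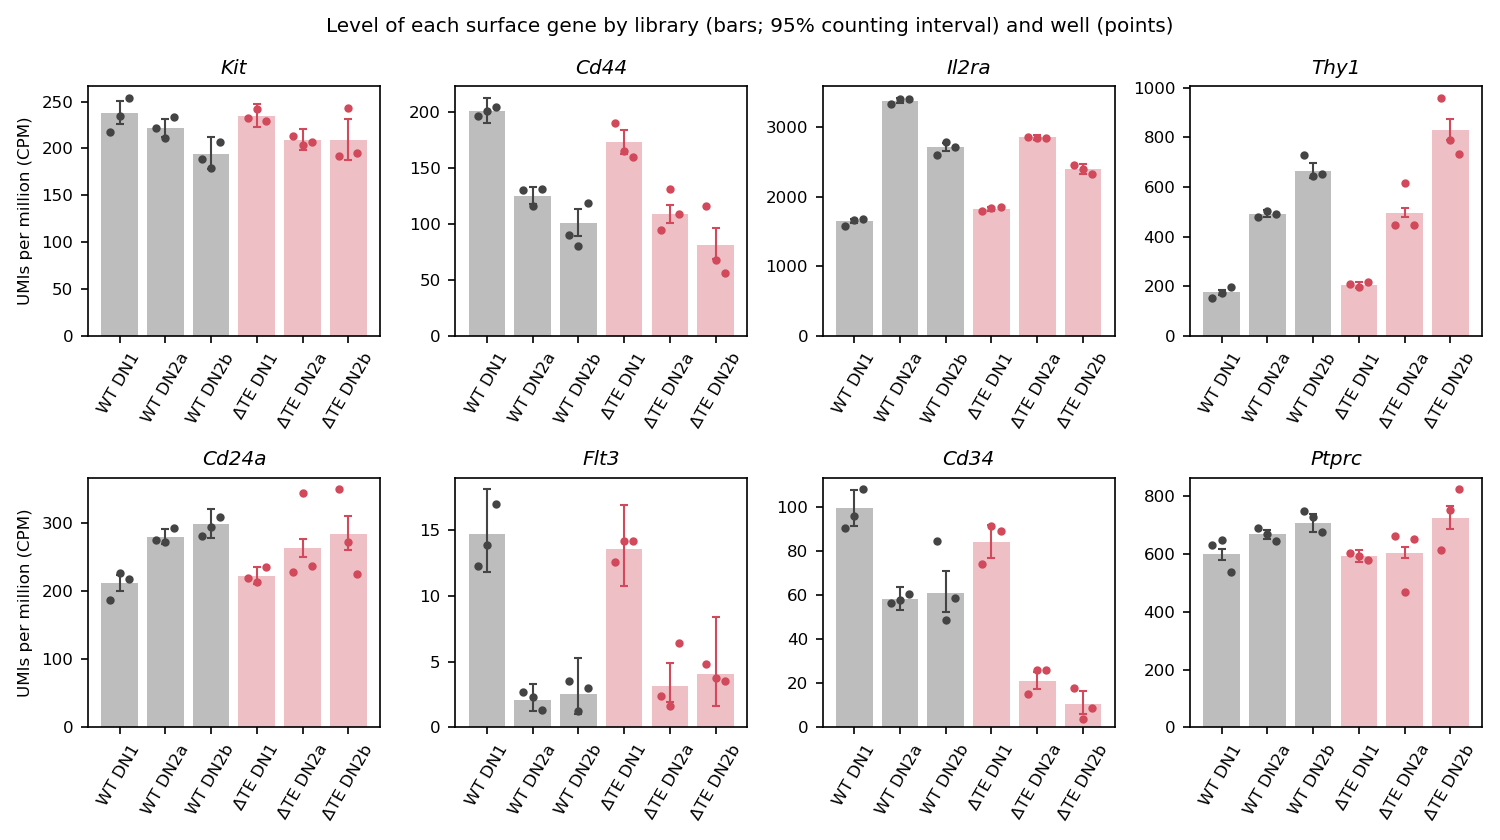
Level of each gene in CPM (vertical axis) in the 6 libraries, WT in grey and ΔTE in red. Bars are libraries with 95% counting intervals and points are the 3 wells. Cd34 falls to 10.5 CPM in ΔTE DN2b against 61.2 CPM in WT DN2b, whereas Kit stays between 194 and 238 CPM.

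The share of cells with a Cd34 UMI moved in the same direction. With every cell thinned to 300 UMIs, it was 2.89% (2.56% to 3.24%) in WT DN1 and 2.43% (2.13% to 2.77%) in ΔTE DN1. For DN2a, WT had 1.66% (1.46% to 1.88%) and ΔTE 0.524% (0.392% to 0.684%), and for DN2b 1.496% (1.16% to 1.90%) and 0.340% (0.163% to 0.625%). Without thinning these shares were 2.44% and 1.10% for DN2a, and 3.04% and 0.470% for DN2b. In Stroma-like cells of all libraries, which have a higher median depth (544 against 434 UMIs), the thinned share was 0.439% (0.227% to 0.765%). Of the 38 Cd34 UMIs in Stroma-like cells, 27 were from WT DN2a. Within ΔTE DN2a the Stroma-like share was 0.338% (0.0409% to 1.22%), from 2 of 592 cells, so the interval takes in the share of all cells of that library. In CPM, without thinning, Stroma-like cells of ΔTE DN2a stood at 6.77 (3 UMIs) against 21.1 for the library. In ΔTE DN2b they had 0 of 44 cells, which is too few to compare.

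In the whole libraries, no other gene of the list was past 1.5-fold with an interval clear of 0 in any start. The count past 1.5-fold was 0 of 8 in DN1, where 1.76% of 10155 genes were past it upward and 2.69% downward. It was 2 of 8 in DN2a and 2 of 8 in DN2b, in both cases Cd34 downward and Flt3 upward. Among genes with at least 50 UMIs over both libraries, 1.69% were past it upward and 8.94% downward in DN2a. In DN2b 3.9% and 5.44% were. Flt3 is under that limit in both starts, which leaves Cd34 as 1 of 7 genes. Flt3, the receptor of Flt3-L, rests on very few molecules there. It had 20 UMIs in ΔTE and 19 in WT for DN2a (0.59, -0.39 to 1.58), and 7 and 7 for DN2b (0.67, -1.07 to 2.41). The median log2 ratio over the 8 genes was -0.02, -0.11 and -0.02 in the 3 starts, beside -0.00, -0.14 and -0.02 over all genes.

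**Figure D2:**
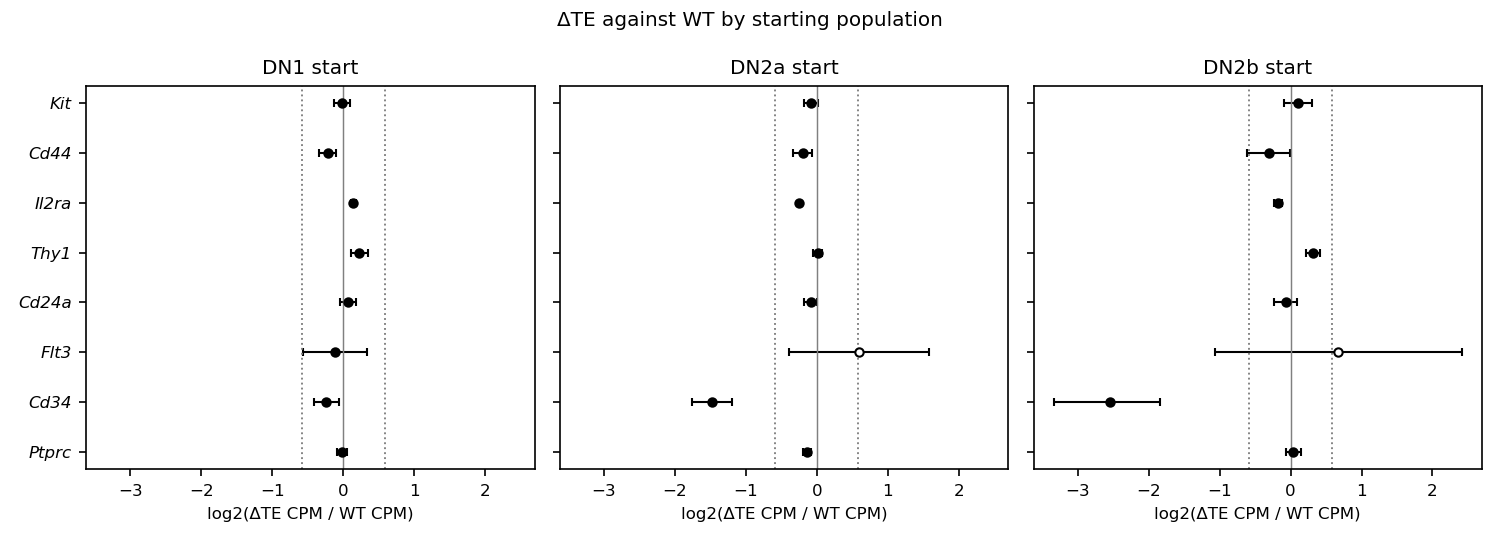
Log2 ratio of ΔTE CPM to WT CPM (horizontal axis) for each gene and start, with 95% counting intervals. Dotted lines mark 1.5-fold and open points are genes under 50 UMIs over both libraries. Cd34 lies at -1.47 in DN2a and -2.54 in DN2b, and the intervals of Flt3 span 0.

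Thy1, which encodes a GPI-anchored glycoprotein of T cells and ILCs, was a little higher in ΔTE for the DN1 and DN2b starts. It measured 176 CPM in WT DN1 against 206 in ΔTE DN1 (0.23, 0.11 to 0.35), and 666 against 831 CPM for DN2b (0.32, 0.22 to 0.42). The wells did not overlap in either start but came close, with 643 to 730 CPM in WT DN2b and 731 to 959 CPM in ΔTE DN2b, and with the nearest DN1 wells of both genotypes at 195 CPM. For DN2a the libraries stood at 492 and 496 CPM (0.01, -0.06 to 0.08), and the sign there changed with the filter on mitochondrial UMIs, from -0.19 without one to 0.24 at 20%. Well 2 of ΔTE DN2a was apart from the other two, with Thy1 at 615 CPM against 449 and 446 CPM. The same well was highest for Cd24a (343 CPM against 228 and 237) and lowest for Ptprc (468 CPM against 662 and 653).

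Il2ra encodes CD25, the alpha chain of the IL-2 receptor. It was slightly higher in ΔTE for DN1 (1826 against 1653 CPM, log2 ratio 0.14, 0.10 to 0.18) and slightly lower for DN2a (2857 against 3388 CPM, -0.25, -0.27 to -0.22) and DN2b (2403 against 2716 CPM, -0.18, -0.23 to -0.12). The wells did not overlap in any of the 3 starts. Set against the median gene, its DN2a ratio was -0.10. Cd44, a receptor for hyaluronan, was lower in ΔTE in each start, by ratios of -0.22, -0.20 and -0.31, and its wells were apart in DN1 only. In all, 3, 2 and 4 of the 8 genes had wells that did not overlap in DN1, DN2a and DN2b (the 4 include Flt3 with 7 UMIs a library). By the same measure, 8.69% of genes with at least 50 UMIs over both libraries were higher and 8.31% were lower in DN1. These shares were 2.8% and 16.7% in DN2a, and 8.0% and 9.28% in DN2b, where Flt3 is under that limit.

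Kit, the receptor of SCF, measured 238, 222 and 194 CPM in WT and 235, 209 and 209 CPM in ΔTE, in the order DN1, DN2a, DN2b. Its ratios of -0.02 (-0.13 to 0.09), -0.08 (-0.19 to 0.02) and 0.10 (-0.10 to 0.30) had intervals that span 0. Cd24a, which encodes heat stable antigen, gave 0.07, -0.09 and -0.07, and Ptprc, the leukocyte phosphatase CD45, gave -0.01, -0.14 and 0.04. For Kit and Cd24a in DN2a the sign differed between scalings or filters, with Kit from -0.24 to 0.05 and Cd24a from -0.26 to 0.09. The sign also differed for Kit in DN2b (-0.04 to 0.14) and Cd24a in DN1 (-0.05 to 0.16). For Ptprc it differed in DN1 (-0.05 to 0.05) and DN2b (-0.12 to 0.07). An isoform of Ptprc, B220, was in the lineage cocktail of the sort, and UMIs per gene do not separate isoforms.

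The cells were also clustered, with the 8 genes left out. Of the cells, 68.7% fell in 11 clusters that no marker list named (called unnamed here) and 14.8% in 3 T-like clusters (Cd3e, Cd3d, Cd3g and Rag1 raised in each). A Myeloid-like cluster (Elane, Mpo, Csf1r) held 5.73%, and 3 Stroma-like clusters (collagen genes, Cxcl12) held 5.00%. Cluster 15, with 3.96% of cells, is given by number only. In it 11 of 17 ILC markers were raised, but its leading genes mixed those of innate lymphoid cells (Xcl1, Ncr1, Klrk1) with genes of myeloid cells (Clec4n, Il1b, C1qb). Clusters under 100 cells held the other 1.83%. In the unnamed clusters Bcl11b itself measured 259, 553 and 800 CPM in the 3 WT libraries and 92.5, 244 and 477 CPM in the 3 ΔTE libraries.

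The Cd34 difference was as large in the unnamed clusters and not in every group of cells. In the unnamed clusters its log2 ratio between ΔTE and WT stood at -0.30 (-0.51 to -0.08) in DN1, -1.58 (-1.91 to -1.26) in DN2a and -2.55 (-3.54 to -1.69) in DN2b, from 403 UMIs in WT and 99 in ΔTE for DN2a and from 118 and 12 for DN2b. In these clusters 2 of 8 genes were again past 1.5-fold in DN2a and in DN2b, Cd34 downward and Flt3 upward (16 and 12 UMIs, then 6 and 3). Among genes with at least 50 UMIs in them over both libraries, 1.74% were past 1.5-fold upward and 5.19% downward in DN2a. In DN2b 4.06% and 4.97% were. Flt3 is under that limit in both starts, so on this footing Cd34 was the only member past 1.5-fold. In DN1, where 1.98% and 1.72% of genes were, the count was 0.

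The difference was present cluster by cluster. The 10 unnamed clusters with at least 100 cells in both DN2a libraries held 54.1 to 83.4 CPM of Cd34 in WT (median 63.9) and 6.18 to 34.2 CPM in ΔTE (median 18.5), so the ranges did not overlap. The T-like clusters gave 56.4 CPM (71 UMIs) in WT DN2a and 13.3 CPM (11 UMIs) in ΔTE DN2a, a ratio of -2.09 (-3.15 to -1.16). In these cells Cd34 was the 1 member past 1.5-fold with at least 50 UMIs, where 2.04% of genes were upward and 9.28% downward. The Myeloid-like cells of the DN2a start gave 97.4 CPM (18 UMIs) and 96.4 CPM (8 UMIs), with a ratio of -0.01 (-1.42 to 1.26). The Myeloid-like cluster was not alike in DN2a and DN1. Its Il2ra stood at 2807 CPM in WT DN2a against 831 CPM in WT DN1. In ΔTE DN2a it was also higher than in ΔTE DN1 (871 CPM). Thy1 of the cluster stood at 141 CPM in WT DN2a and 133 CPM in ΔTE DN2a, against 34.8 and 30.5 CPM in DN1. In the DN1 start, where this cluster was larger, its Cd34 stood at 180 CPM (140 UMIs) in WT and 174 CPM (97 UMIs) in ΔTE, a ratio of -0.05 (-0.44 to 0.33). Stroma-like cells of DN2a also differed, with 24.2 CPM (27 UMIs) in WT and 6.8 CPM (3 UMIs) in ΔTE. The 2 small Stroma-like clusters with the least Ptprc (29.9 and 31.2 CPM) held 0 UMIs of Cd34, which allows up to 55.1 and 38.3 CPM. In the T-like cells of DN2b Cd34 stood at 41.0 CPM (36 UMIs) in WT and 4.66 CPM (2 UMIs) in ΔTE (-3.14, -6.24 to -1.18). In cluster 15 Cd34 went the other way in DN1, with 83.3 CPM (12 UMIs) in WT and 172 CPM (32 UMIs) in ΔTE (1.05, 0.05 to 2.14), stood at 42.7 CPM (4 UMIs) and 39.3 CPM (11 UMIs) in DN2a, and was lower in ΔTE in DN2b, at 39.5 CPM (6 UMIs) and 6.33 CPM (2 UMIs) (-2.64, -5.98 to -0.16).

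**Figure D3:**
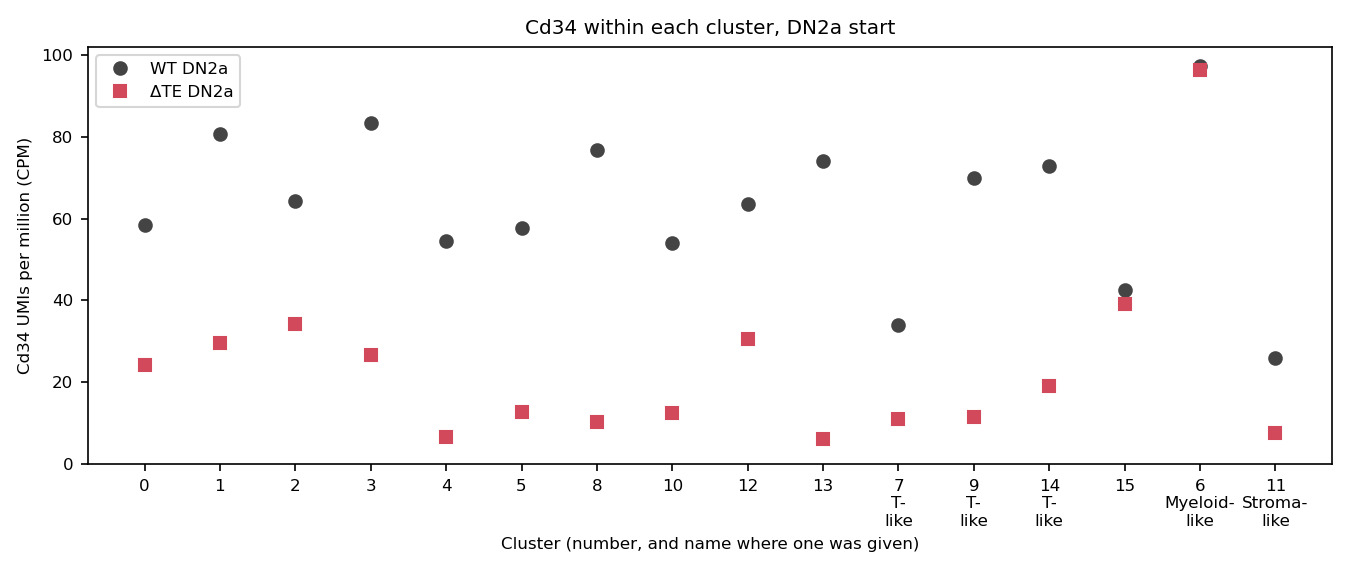
Cd34 in CPM (vertical axis) in each cluster with at least 100 cells in both DN2a libraries, WT as grey circles and ΔTE as red squares. Clusters without a name under the number are unnamed. The highest ΔTE value among clusters 0 to 5, 8, 10, 12 and 13 is 34.2 CPM, and the lowest WT value is 54.1 CPM.

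Of the genes within 1 Mb of Cd34 on chromosome 1, Cd46 and Cr1l, which encode complement regulators, had at least 50 UMIs in all 3 comparisons. They were looked at after the Cd34 values had been seen. Their ratios of ΔTE to WT were -0.12 (-0.42 to 0.17) and -0.10 (-0.25 to 0.05) in DN2a, and -0.16 (-0.69 to 0.36) and 0.10 (-0.20 to 0.41) in DN2b. All 4 intervals span 0. In DN1 the ratio of Cd46 was -0.13 (-0.46 to 0.20) and that of Cr1l was 0.24 (0.07 to 0.40), with an interval above 0. Plxna2, which encodes a semaphorin receptor, had at least 50 UMIs in DN2a alone, with 151 in WT and 64 in ΔTE, and its ratio there was -0.72 (-1.17 to -0.29).

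The other genes differed less within the unnamed clusters. Thy1 had a ratio of 0.18 (0.05 to 0.31) in DN1, 0.02 (-0.06 to 0.09) in DN2a and 0.43 (0.29 to 0.57) in DN2b, from 623 CPM in WT to 842 CPM in ΔTE. Il2ra gave 0.11, -0.28 and -0.07, with 3812 CPM in WT DN2a and 3146 CPM in ΔTE DN2a. Kit gave -0.11 (-0.23 to 0.01), -0.18 (-0.29 to -0.06) and -0.24 (-0.53 to 0.05). With the clustering rerun from another random seed the Kit ratio in DN2b was 0.19 and the Thy1 ratio there was 0.19, so these smaller values depend on which cells are counted. The unnamed cells of that rerun were not the same kinds of cells. They took in a cluster of 2446 cells with 10 of 17 ILC markers raised, of which 285 were WT DN2b and 653 ΔTE DN2b. No cluster was then named Myeloid-like. In the T-like cells of DN1, Kit was past 1.5-fold upward, from 153 CPM (58 UMIs) in WT to 260.5 CPM (68 UMIs) in ΔTE (0.77, 0.24 to 1.30), where 4.21% of genes were past it upward and 4.9% downward.

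The starting populations differed in more of the 8 genes, both those that the sort had used and others. From DN1 to DN2a in WT, Il2ra went from 1653 to 3388 CPM, a log2 ratio of 1.03 (1.00 to 1.07), and Thy1 from 176 to 492 CPM, a ratio of 1.48 (1.39 to 1.58). Flt3 went from 14.7 CPM (88 UMIs) to 2.10 CPM (19 UMIs), a ratio of -2.81 (-3.60 to -2.08). Cd44 went from 201 to 125 CPM (-0.68, -0.80 to -0.57) and Cd34 from 99.5 to 58.4 CPM (-0.77, -0.94 to -0.60). These 5 genes were past 1.5-fold, and they and Cd24a had wells that did not overlap. Of all genes, 15.4% were past 1.5-fold upward and 2.79% downward, and 36.0% and 10.2% had wells that did not overlap. Only 20 of 10883 genes had a ratio as low as that of Flt3 or lower, itself included.

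The WT DN2a library stands apart in its mitochondrial share, and the median gene was 0.15 higher in it than in WT DN1. Relative to that gene the ratios were 0.89 for Il2ra, 1.34 for Thy1, -0.83 for Cd44, -0.92 for Cd34 and -2.95 for Flt3. With no mitochondrial limit, Cd44 (-0.52) and Cd34 (-0.51) were no longer past 1.5-fold. Cd24a went from 211 to 279 CPM (0.40, 0.31 to 0.50), and with no mitochondrial limit it was past 1.5-fold at 0.61. Kit (-0.10) and Ptprc (0.16) stayed within 1.5-fold, and for Kit the sign differed between settings, from -0.25 to 0.08.

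The ΔTE libraries, which share no cells with these, showed the same 5 genes past 1.5-fold from DN1 to DN2a. Il2ra went from 1826 to 2857 CPM (0.65, 0.61 to 0.68), Thy1 from 206 to 496 CPM (1.27, 1.17 to 1.36) and Cd44 from 173 to 109 CPM (-0.67, -0.81 to -0.53). Flt3 went from 13.6 CPM (80 UMIs) to 3.17 CPM (20 UMIs), a ratio of -2.10 (-2.89 to -1.38). Cd34 had a ratio of -2.001 (-2.29 to -1.72), beside -0.77 in WT, and 37 of 10366 genes were as low or lower. Of all genes, 9.1% were past 1.5-fold upward and 3.6% downward. These 5 genes and Kit had wells that did not overlap, where 9.03% of genes were higher and 11.6% lower.

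From DN2a to DN2b the values moved less. In WT, 0 of the 8 genes were past 1.5-fold, where 1.35% of 10565 genes were upward and 14.8% downward. Thy1 was the highest of them at 0.44 (0.36 to 0.52), or 0.63 relative to the median gene, which was 0.19 lower in WT DN2b. Cd34 stayed level in WT at 58.4 and 61.2 CPM (0.07, -0.19 to 0.32), with a sign that differed between settings from -0.41 to 0.24. In ΔTE, where 3.4% and 10.7% of genes were past 1.5-fold, 2 of the 8 genes were: Thy1 upward, from 496 to 831 CPM (0.75, 0.65 to 0.84), and Cd34 downward, from 21.1 to 10.5 CPM (-1.01, -1.80 to -0.29). The Cd34 wells overlapped, and its ratio was -0.51 when cells were limited to 20% mitochondrial UMIs. With no such limit the Thy1 ratio was 0.55, under 1.5-fold, whereas the Cd34 ratio was -1.34. Il2ra was lower in DN2b than in DN2a in both genotypes, at -0.32 in WT and -0.25 in ΔTE. The wells did not overlap for Kit, Il2ra and Thy1 in WT, where 3.96% of genes were higher and 33.7% lower, nor for Il2ra and Thy1 in ΔTE, where 4.84% were higher and 8.75% lower. The contrasts named here share libraries, so they are not independent of each other.

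**Figure D4:**
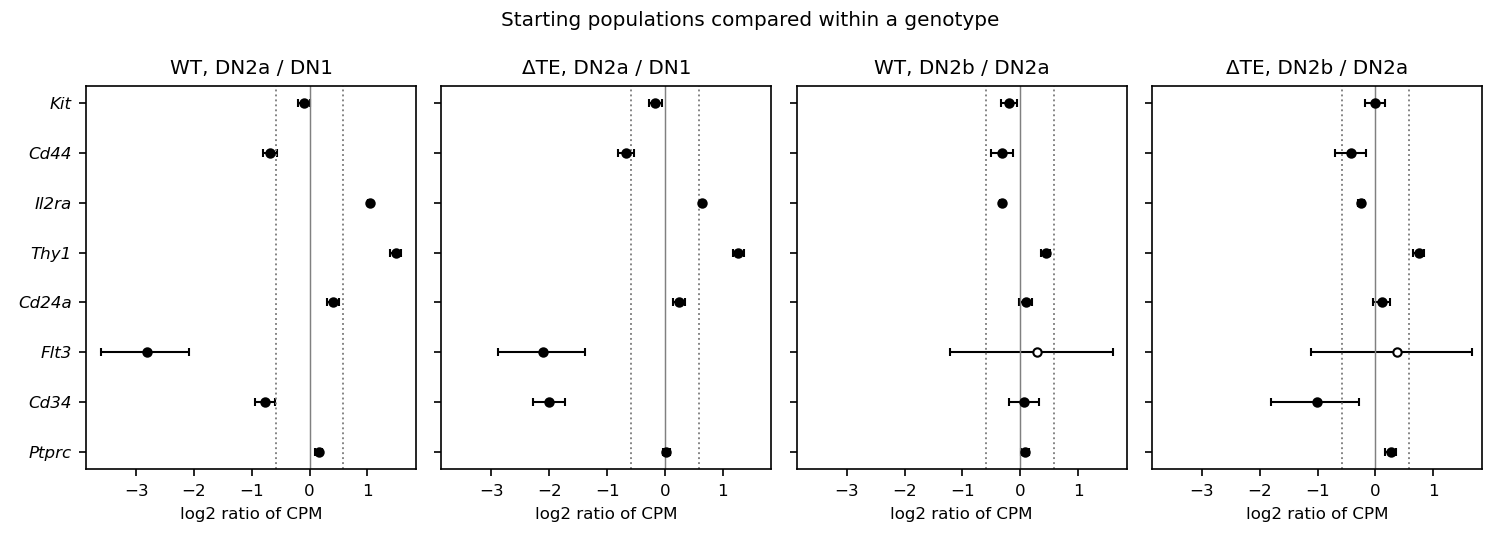
Log2 ratio of CPM between starting populations within a genotype (horizontal axis) for each gene, with 95% counting intervals. Dotted lines mark 1.5-fold and open points are genes under 50 UMIs over both libraries. Il2ra and Thy1 lie right and Cd44, Flt3 and Cd34 left of 1.5-fold from DN1 to DN2a in both genotypes.

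Markers of other cells moved with the start. The summed level of the 13 myeloid markers was 369 CPM in WT DN1 and 257 CPM in ΔTE DN1, against 26.8 to 71.9 CPM in the other 4 libraries. The Myeloid-like cluster held 14.6% and 11.04% of DN1 cells and 0.500% to 2.49% of the others. Values without this cluster were also taken. In the unnamed clusters alone, WT DN1 and DN2a gave 10.5 and 1.93 CPM for Flt3, 188 and 129 CPM for Cd44, 87.1 and 64.9 CPM for Cd34, 1865 and 3812 CPM for Il2ra, and 195 and 506 CPM for Thy1. The 5 directions were also present there, but the distances of Cd44 and Cd34 were then under 1.5-fold.

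Among cell classes the genes fell into different orders, and some of these depended on the start. Cd34 was higher in the Myeloid-like cluster than in the unnamed clusters in each of the 6 libraries, at 180 against 87.1 CPM in WT DN1 and 174 against 71.0 CPM in ΔTE DN1. Thy1 was lower there in each of the 6, at 34.8 against 195 CPM and 30.5 against 221 CPM in the same libraries. Kit was higher there in each of the 6, at 272 against 253 CPM in WT DN1 and 297 against 234 CPM in ΔTE DN1. For DN2a its level was 357 against 253 CPM in WT and 313 against 223 CPM in ΔTE. In cluster 15 Kit was far lower in the DN1 libraries (76.3 and 118 CPM) and higher in WT DN2b (408 CPM, against 272 in the Myeloid-like cluster). All 47 Flt3 UMIs of the Myeloid-like cluster came from the DN1 libraries, 28 from WT (36.1 CPM) and 19 from ΔTE (34.05 CPM). In these libraries Flt3 stood at 10.5 and 9.08 CPM in the unnamed clusters and at 55.5 CPM (8 UMIs) and 53.7 CPM (10 UMIs) in cluster 15. Cd44 was higher in the Myeloid-like cluster than in the unnamed clusters in 5 of 6 libraries, the exception being ΔTE DN2a (96.4 against 115 CPM). It was higher still in cluster 15 of the DN1 libraries, at 340 against 281 CPM in WT and 296 against 217 CPM in ΔTE. The Myeloid-like counts over libraries take in very few molecules for DN2b. There ΔTE had 17 cells with 2 UMIs of Cd34, 3 of Thy1, 2 of Kit and 1 of Cd44. WT DN2b had 56 cells with 5, 7, 7 and 6 UMIs of the same genes.

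Pooled as classes, the T-like clusters had the highest Thy1 and Cd24a. Thy1 stood at 743 CPM (717 to 770.3) and Cd24a at 348 CPM (330.1 to 367) there, and both were above the pooled unnamed clusters in each of the 6 libraries. Single clusters did not all keep this order. Unnamed cluster 2 had 393 CPM of Cd24a, against 316, 316 and 438 CPM in T-like clusters 7, 9 and 14. Its Thy1 was 711 CPM, against 741, 617 and 906 CPM in the same T-like clusters. Il2ra was close in T-like and unnamed cells, at 3129 CPM (3075 to 3184) and 2801 CPM (2779 to 2823). Cd44 (89.7 CPM, 80.7 to 99.4) was below the unnamed clusters in each of the 6 libraries and Kit (188 CPM, 175 to 202) in 5 of 6, the exception being ΔTE DN1. T-like cells made up 34.8% of WT DN2b and 27.4% of ΔTE DN2b cells, and 5.50% to 16.4% of the other libraries. In the DN1 libraries the T-like clusters were unlike each other. Cluster 9 (486 cells in WT, 303 in ΔTE) had 201 and 211 CPM of Cd34 and 1273 and 1553 CPM of Il2ra. Cluster 7 had 47.4 CPM (6 UMIs) and 22.1 CPM (2 UMIs) of Cd34 and 2755 and 2974 CPM of Il2ra. Flt3 stood at 23.9 CPM (5 UMIs) and 51.0 CPM (7 UMIs) in cluster 9.

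Ptprc was higher in cluster 15 than in the unnamed clusters in each of the 6 libraries, at 1133 CPM (1073 to 1196) against 622 CPM (612 to 632) over all of them. Its share of cells was 1.19% in WT DN2a and 5.01% in ΔTE DN2a, and 5.84% and 18.6% for DN2b. Its surface genes differed sharply by start. In the 2 DN1 libraries it had 305 and 398 CPM of Il2ra, 41.6 and 69.9 CPM of Thy1 and 76.3 and 118 CPM of Kit. In the 4 DN2a and DN2b libraries these stood at 1139 to 2442 CPM, 321 to 796 CPM and 314 to 418 CPM. Flt3 was the reverse, with 18 of the 19 UMIs of the cluster in DN1 libraries. In DN2a the Il2ra level was 2442 CPM (229 UMIs) in WT and 1245 CPM (349 UMIs) in ΔTE, a ratio of -0.97 (-1.22 to -0.72), where 13.1% of 1610 genes were past 1.5-fold downward and 8.63% upward. Cd44 was also past it downward there, from 17 UMIs in WT and 33 in ΔTE, with an interval that spans 0 (-0.62, -1.51 to 0.31). For Il2ra this is the only start past 1.5-fold in the cluster, with -0.43 (-0.67 to -0.18) in DN2b and 0.38 (-0.18 to 0.95) in DN1.

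In the Stroma-like clusters the levels give a measure of background. Ptprc, Il2ra and Kit, which stromal cells should lack, stood at 179, 829 and 62.7 CPM, and Flt3 had 1 UMI. Most of this came from cluster 11, the largest. In the 2 small clusters Ptprc stood at 29.9 and 31.2 CPM, Kit at 14.9 and 10.4 CPM and Il2ra at 164 and 104 CPM. Cd44 was different, at 104 and 104 CPM in the 2 small clusters and 130.3 CPM over all Stroma-like cells, close to the 143 CPM of the unnamed clusters. With every cell thinned to 300 UMIs, 18.5% of Stroma-like cells had a UMI of Il2ra against 51.5% of unnamed cells, and 4.35% against 16.5% had one of Ptprc. Without thinning these shares were 31.9% and 65.7%, and 9.53% and 25.9%.

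**Figure D5:**
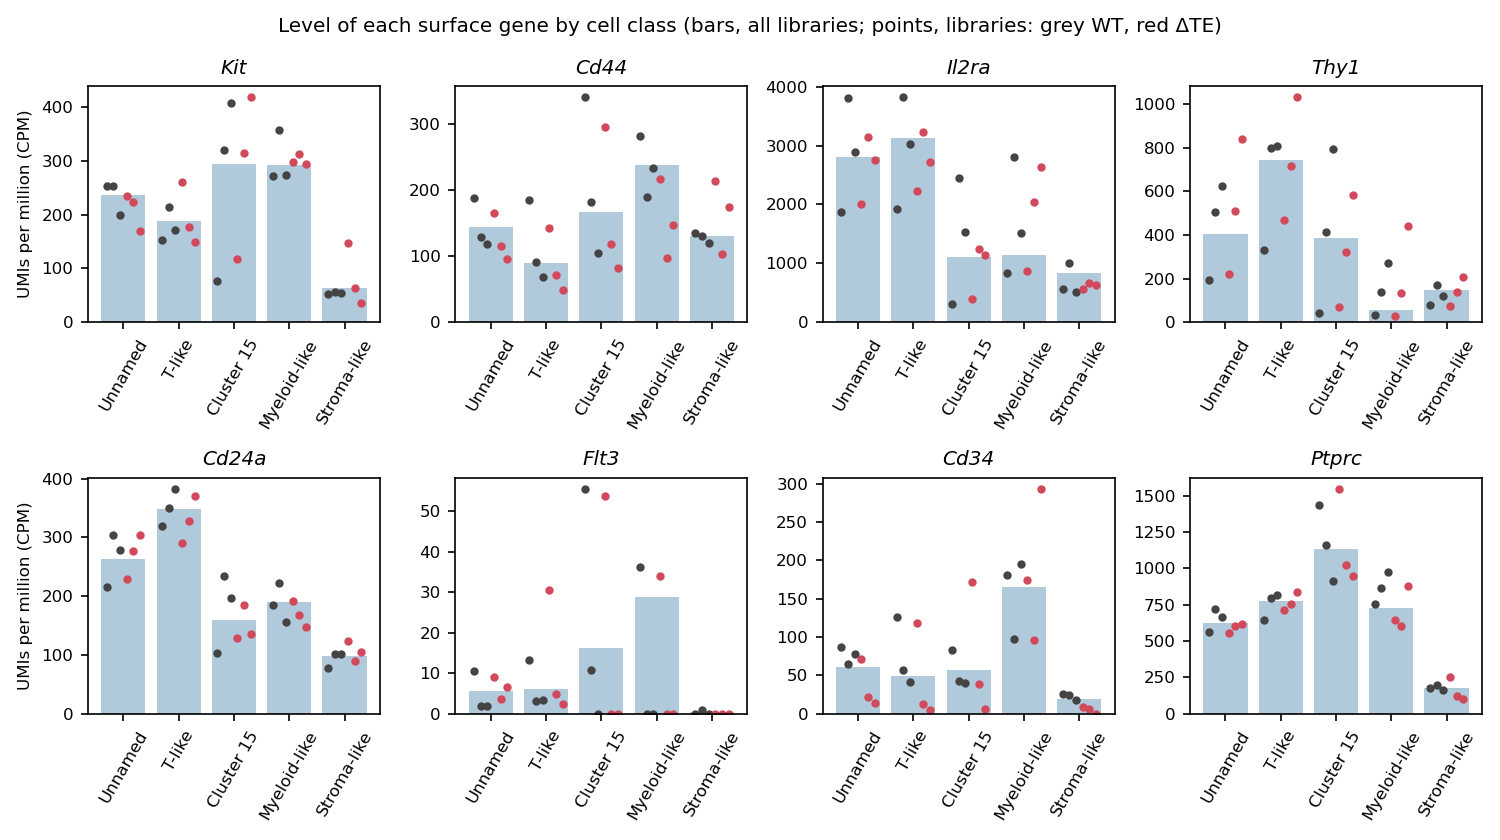
Level of each gene in CPM (vertical axis) by class of cells. Bars pool all libraries and points are the 6 libraries, WT in grey and ΔTE in red. The pooled bars depend on which libraries fill a class. In the DN1 libraries Flt3 and Cd44 are higher in cluster 15 (55.5 and 340 CPM in WT) than in Myeloid-like cells (36.1 and 281 CPM), although the pooled bars have the other order.

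Among the unnamed clusters the genes varied within a library. In WT DN2a, over the 10 clusters with at least 100 cells, Thy1 ranged from 270.1 to 778 CPM, Cd24a from 229 to 466 CPM and Cd44 from 104 to 163 CPM. Il2ra ranged from 3021 to 4419 CPM, Kit from 204 to 329.7 CPM and Ptprc from 671 to 784 CPM. In ΔTE DN2a, also over 10 clusters, Thy1 ranged from 241 to 793 CPM, Cd24a from 155 to 438 CPM and Il2ra from 2819 to 3540 CPM. Cd34 had wider limits in the DN1 libraries, at 48.2 to 159.9 CPM in WT and 40.04 to 142 CPM in ΔTE. It was highest in cluster 2 of WT DN1 (37 UMIs), with cluster 12 next at 146 CPM (21 UMIs). In ΔTE DN1 cluster 12 was highest (27 UMIs), with cluster 2 next at 119 CPM (32 UMIs). The same 2 clusters thus led in both libraries, and these few UMIs do not settle their order.

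In single cells the pairs of genes were counted outside the Stroma-like clusters, with each cell thinned to 300 UMIs, against the number expected from the separate shares in each library. Thy1 and Cd24a were found together in 558 cells where 444 were expected, a ratio of 1.26 (1.16 to 1.37), above expectation in 6 of 6 libraries. Il2ra and Thy1 were together in 3256 cells against 2959 (1.10, 1.06 to 1.14), also in 6 of 6. In contrast, Il2ra and Cd34 were together in 282 cells against 396 (0.713, 0.632 to 0.801), below expectation in 5 of 6 libraries. Thy1 and Cd34 gave 61 against 81.6 (0.748, 0.572 to 0.961). Il2ra and Flt3 were together in 24 cells where 43.4 were expected (0.553, 0.354 to 0.823), whereas Flt3 and Cd34 were together in 7 against 2.60 (2.70, 1.08 to 5.56), above expectation in 2 of 6 libraries. Of 28 pairs, those of Kit with the other genes had intervals that include 1. These are descriptions over cells, which are not replicates.

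The genes most like each member over the 18 wells were found by Pearson's r of log2(CPM + 5), among 5948 genes with at least 1000 UMIs. Wells of 1 library share its cells, so r is a description over 6 libraries. Closest to Thy1 were Kbtbd11 (0.98), Rgcc (0.98) and Lat (0.97), an adaptor of the T-cell receptor. Cd44 was closest to Ptger3 (0.94), Skap2 (0.93) and Spi1 (0.93), which encodes the transcription factor PU.1, and Il2ra to Myo10 (0.96), Akr1c13 (0.92) and Anp32e (0.92). Cd34 was closest to Cdk7 (0.92), Abcb1b (0.91) and St6galnac3 (0.90), and Kit to Fam120b (0.88), Smg9 (0.82) and Piezo1 (0.81). Cd24a was closest to Myl12b (0.93), Cops6 (0.92) and Ppp1ca (0.92), and Ptprc to Tnik (0.92), Utrn (0.91) and Pag1 (0.90). Flt3 had 221 UMIs in all, under the 500 set for this measure.

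Of 20 other surface genes of early T-cell stages, 12, 13 and 12 had at least 50 UMIs over both libraries in the 3 comparisons of genotype. In DN1, 1 was past 1.5-fold upward and 0 downward, in DN2a 1 upward and 3 downward, and in DN2b 2 upward and 1 downward. Of all genes with at least 50 UMIs, 1.76% were past it upward and 2.69% downward in DN1. The shares were 1.69% and 8.94% in DN2a, and 3.9% and 5.44% in DN2b. Cd28, a costimulatory receptor, was higher in ΔTE in each start, at 5.26 against 3.51 CPM in DN1 (0.59, -0.26 to 1.46), 19.8 against 11.8 CPM in DN2a (0.74, 0.36 to 1.13) and 69.3 against 34.8 CPM in DN2b (1.00, 0.59 to 1.40). Cd5, which dampens T-cell receptor signals, was lower in ΔTE, at -0.43 (-0.79 to -0.08), -1.08 (-1.42 to -0.74) and -0.95 (-1.63 to -0.31). Cd48, a ligand of Cd244, was past 1.5-fold in DN2a only (-0.60, -0.68 to -0.53), or -0.46 set against the median gene, with -0.29 in DN1 and -0.05 in DN2b. The other gene that was lower in DN2a was Bst1, a surface enzyme, with 52 UMIs in WT and 24 in ΔTE (-0.60, -1.36 to 0.13), named after its values were seen. Cd9, a tetraspanin, was higher in DN2b (0.82, 0.27 to 1.37), with 0.15 in DN1 and 0.03 in DN2a. Il7r, the receptor of IL-7, was higher in ΔTE in each start without passing 1.5-fold, at 0.43, 0.34 and 0.54.

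Some antigens of the lineage cocktail of the sort were also read. Ly6g had 0 to 1 UMIs per library and Klrb1c 0 to 8. Itgam had 52 UMIs in WT DN1 and 33 in ΔTE DN1 and 0 to 16 in the others, and Itgax 131 and 121 against 6 to 68. Cd3e had 231 UMIs in WT DN2a and 79 in ΔTE DN2a, 25.5 and 12.5 CPM. These cells were read after the culture, so the levels describe what grew and not what was sorted.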

How the data were processed

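The authors deposited, per library, a matrix with the count of UMIs of each gene in each barcode, without normalization or filter on cells. The aligner and the counting of strand and introns are not given in the sources used here, and the submitters' processing notes name mm9. Gene positions were looked up by Ensembl identifier in GENCODE M21 (GRCm38), and promoters were from RefSeq. The labels give the molecule as nuclear RNA, and the protocol speaks of fixed cells and of nuclei.

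Following the study's methods, barcodes needed 200 genes or more, and those above 2000 UMIs or above 30% mitochondrial UMIs were dropped. These limits left fewer cells than the study states, and whether its upper limit was on UMIs or genes is unclear. No doublet caller was run. CPM used genes in at least 15 kept cells. A gene was past the threshold at a CPM ratio of at least 1.5-fold. The share of all genes past it was taken over genes with at least 50 UMIs in both libraries together. With 1 library per condition there was no test. Intervals are exact, Poisson for UMIs, conditional for ratios and Clopper-Pearson for shares, at 95%.

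Clusters came from latent Dirichlet allocation (11 topics, 10 passes, 3000 variable genes) and Leiden at a resolution of 0.3 on 40 neighbors, in place of MIRA, with the 8 genes, the 20 other surface genes, Bcl11b, Zbtb16, mitochondrial and sex-linked genes left out. Clusters of at least 100 cells took a name from at least 3 markers raised 2-fold or more with 20 UMIs, a rule set after the clusters were seen. Of the 10 T-cell markers, 8 are among the listed genes. All 8 genes were named, other surface genes only with at least 50 UMIs in all 3 genotype comparisons and past 1.5-fold in at least 1 (Il7r was added after its values were seen), and for each member the 3 genes of highest r. Members, lists and rules were chosen with earlier results of these data known.

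Alternatives were at least 300 genes, at most 20% or unlimited mitochondrial UMIs, at most 2000 genes or 1000 UMIs, totals without mitochondrial UMIs, TMM, thinning, no Stroma-like cells, resolution 0.6, seed 1, and each well left out. Counting only genes with at least 50 UMIs was added after seeing the data. The ratios were tested on simulated data. Tools were Python 3.11.15, numpy 2.4.6, scipy 1.17.1, pandas 2.3.3, scikit-learn 1.9.0, scanpy 1.11.5, leidenalg 0.10.2, BLASTN 2.17.0, matplotlib 3.10.9, and edgeR 4.0.16 in R 4.3.3, used for TMM alone. One gene of the lineage list is not reported here.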

Additional observations from a re-analysis of the deposited data

How the results depend on the processing

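The lower Cd34 in ΔTE was past 1.5-fold in DN2a and DN2b under every alternative run and with each well left out, at -1.73 to -1.34 in DN2a and -2.78 to -2.10 in DN2b over the alternatives. The counts of genes past 1.5-fold moved in several comparisons, and between genotypes Flt3, with 39 and 14 UMIs, was the gene lost, since Cd34 stayed past it. For ΔTE against WT in DN2a it was 1 with at least 50 UMIs, at least 300 genes, at most 20% or no limit of mitochondrial UMIs, at most 2000 genes, at most 1000 UMIs, thinned or without Stroma-like cells, and 1 to 2 with a well left out. In DN2b it was 1 with at least 50 UMIs, at least 300 genes and both other mitochondrial limits, and 1 to 2 with a well left out. In the unnamed clusters it was 1 in DN2a when thinned or with at least 50 UMIs (1 to 2 with a well left out), and 1 in DN2b with seed 1 or at least 50 UMIs. For WT DN2b against DN2a it was 1 with both mitochondrial limits, without mitochondrial UMIs and with TMM, and for ΔTE it was 1 at 20% and 4 when thinned. In WT this was Thy1 (0.63 at 20%, 0.59 without mitochondrial UMIs, 0.61 with TMM) or Il2ra (-0.62 with no limit). In ΔTE Cd34 left at 20% (-0.51), and Cd44 (-0.80) and Flt3 (1.30) joined when thinned. Flt3 in the unnamed clusters of DN2a was 0.86, turned to -0.12 without ΔTE DN2a well 3 and ranged up to 1.38 with another well left out. The cause of these moves was not tested beyond the cells each setting leaves. No paired analysis was possible because each condition has 1 library and its number is given in accession order. Barcodes above 30% mitochondrial UMIs, which were not kept, hold fewer other UMIs by their choice, which by itself lowers their CPM. With mitochondrial UMIs out of the total, Cd44 in ΔTE DN2a was at 144 CPM in them and 139 CPM in kept cells. The other genes stayed lower in them in that library. Il2ra stood at 2700 against 3628 CPM, Thy1 at 420 against 629 and Kit at 201 against 266. With mitochondrial UMIs in the total, their Col1a2, a stromal marker, was at 946 against 294 CPM. Why they differ was not tested.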
